A study of Mus musculus with 12 samples.

Results

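The 10 genes described here are cytoskeletal targets of serum response factor (SRF) and of its coactivators, the myocardin-related transcription factors (MRTFs): Srf itself, Acta2, Actb, Actg1, Tagln, Cnn1, Cnn2, Myl9, Tpm1 and Vcl. They were taken from the table by gene symbol, and the list was drawn up with earlier results of these data known. All 10 were found among the 27179 genes of the count table. The reads of 7 of the 10 were enough for a test, and Acta2, Cnn1 and Myl9 stayed below the filter on low counts. RNA came from MC38-idAdpgkG cells, a line made from the mouse colon carcinoma line MC38. It carries a transgene that doxycycline switches on and that encodes the mutant Adpgk(R304M), a neoantigen of these tumour cells, fused to turboGFP. The protein made from it carries a tag through which dTAG-13, a small molecule that recruits a ubiquitin ligase, directs its degradation. All 4 groups received mouse interferon-gamma at 20 ng/mL. The control group had it alone for 51 h, and the doxycycline group had 1 µg/mL doxycycline beside it for the same 51 h. The dTAG-13 group had interferon-gamma for 48 h, after which 1 µM dTAG-13 was added for 3 h. The doxycycline plus dTAG-13 group had interferon-gamma and doxycycline for 48 h before the same 3 h of dTAG-13. Each group had 3 libraries, which the labels give as technical repeats of 1 biological sample. Errors and p-values therefore measure only the spread between libraries of 1 culture per group. No group lacked interferon-gamma, so its own effect was not measured, and the labels name no solvent given to the control.

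SRF binds a short DNA element, the CArG box, in the promoters of its targets. MRTFs are held in the cytoplasm by monomeric actin and enter the nucleus to work with SRF when actin is assembled into filaments, a step controlled by small GTPases. The ternary complex factors (TCFs) of the Elk family compete with MRTFs for SRF and instead serve immediate early genes such as Fos and Egr1. The members encode the factor itself, actins, proteins that bind and stiffen actin filaments, and a protein of focal adhesions. Acta2, Tagln, Cnn1 and Myl9 are best known from smooth muscle and contractile fibroblasts, whereas Actb and Actg1 are the actins of most other cells.

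CArG boxes were looked for because they are the element through which these genes are grouped. The RefSeq promoter table (GRCm38.p6) held 8 of the 10 members, without Actb and Tagln. In the 250 bases before the start, 5 of the 8 had at least 1 exact CArG box on either strand (the box reads the same way on both), against 1.47% of 32851 windows of the same length. A box with at most 1 base off was present in 7 of the 8, against 18.6% of all windows, and Cnn1 had none. The stretches around the exact boxes follow, 5′ to 3′ along the gene, with the boxes in capitals. Each holds at most 60 bases before the first box and 40 after the last, within the 250 bases searched. It is shorter where an annotated exon comes sooner. The stretch of Srf lies inside the RefSeq span of the gene, which reaches further upstream than the start used in the promoter table.
Srf (chr17:46556176-46556304, minus strand): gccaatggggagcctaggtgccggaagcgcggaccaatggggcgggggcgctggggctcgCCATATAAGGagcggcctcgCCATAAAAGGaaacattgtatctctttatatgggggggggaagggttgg
Actg1 (chr11:120348543-120348645, minus strand): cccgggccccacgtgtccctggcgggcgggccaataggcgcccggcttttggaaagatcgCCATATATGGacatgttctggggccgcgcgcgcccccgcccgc
Cnn2 (chr10:79988484-79988583, plus strand): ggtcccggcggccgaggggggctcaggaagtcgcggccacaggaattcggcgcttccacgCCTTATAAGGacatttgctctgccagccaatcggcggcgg
Vcl (chr14:20929148-20929220, plus strand): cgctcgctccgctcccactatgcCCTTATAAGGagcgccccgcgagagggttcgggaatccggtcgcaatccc
Myl9 (chr2:156775243-156775352, plus strand): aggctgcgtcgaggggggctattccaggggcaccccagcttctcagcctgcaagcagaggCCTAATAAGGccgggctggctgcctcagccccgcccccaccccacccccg
Srf had a pair of exact boxes, 82 and 62 bases before its start, and Vcl and Cnn2 had the same box letters at 227 and 56 bases. The box of Actg1 lay 90 bases and that of Myl9 161 bases before the start. Acta2 and Tpm1 had only boxes with 1 base off, the nearest to the start at 34 bases in Acta2 and at 80 bases in Tpm1. A match of letters is not evidence of binding, and Myl9, with an exact box, was among the 3 members with almost no reads.

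The 12 libraries held 22165538 to 32809573 counted reads. Values are normalised read counts (CPM, scaled to a common library size), and fold changes are on the log2 scale. A gene is said to rise or fall only where edgeR's quasi-likelihood test gave a Benjamini-Hochberg adjusted p under 0.05 over the 12910 genes tested. The labelled origin was checked against markers of other cell types. All 8 epithelial markers were under 1 CPM in every group, with Epcam and Cdx2 at 0 reads in all 12 libraries. These epithelial markers therefore did not bear out the labelled carcinoma origin. Of 8 fibroblast markers 4 were above 1 CPM, led by Col3a1 (850 ± 22.3 CPM in control, SD, n = 3). Dcn (163.7 CPM), Pdgfra (157.4) and Pdgfrb (5.279) followed in control, and Fap, Lum, Col1a1 and Col1a2 were near 0. The sum of the 8 fibroblast markers was 1160 to 1190 CPM in control, 1420 to 1460 with doxycycline, 1100 to 1130 with dTAG-13 and 1180 to 1210 with both agents. Of 10 smooth muscle markers, which include 3 members, 9 were under 1 CPM and the tenth was Smtn (166 ± 2.13 CPM in control). Of 7 leukocyte and endothelial markers 6 were under 1 CPM. In a bulk sample, fewer cells that express a gene and less RNA of it per cell cannot be told apart. The part of these markers in the results was not tested.

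Ranked by level per kilobase of transcript, Actb led in control with 1564 CPM per kb, followed by Actg1 with 389.2. Tpm1 (193.9 CPM per kb) and Cnn2 (171.3) came next, and Srf (43.34) and Vcl (31.79) were lower. Tagln was listed at 0.4332 CPM per kb, and the other 3 members were lower still. Nearly all reads of the 10 genes thus came from members used outside muscle. Summed over all 10 members, the middle library of each group had 4990 CPM in control, 4600 with doxycycline, 4220 with both agents and 4090 with dTAG-13.

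Srf, on chromosome 17 (46546838 to 46558267, GRCm38.p6), encodes the factor shared by all of these targets. Its level was 115.2, 114.9 and 110 CPM in the control libraries and 93.85, 91.72 and 97.86 CPM with doxycycline. With both agents it was 88.21, 85.3 and 84.96 CPM, and with dTAG-13 alone 81.26, 79.64 and 77.66 CPM. The 4 groups did not overlap, and the order was control, doxycycline, both agents, dTAG-13. Every step between neighbours passed the test. Srf fell by 0.26 (log2, SE 0.0323, adjusted p = 1.66e-08) with doxycycline and by 0.51 (SE 0.0328, adjusted p = 3.81e-17) with dTAG-13. Added to doxycycline, dTAG-13 lowered it by a further step of -0.13 (SE 0.0335, adjusted p = 0.000608). That step turned to 0.065 and was not called when length and GC content of transcripts were corrected for (adjusted p = 0.112). With both agents Srf was 0.11 higher than with dTAG-13 alone (SE 0.034, adjusted p = 0.0128). That last call was lost without doxycycline plus dTAG-13 replicate 1 (0.098, adjusted p = 0.0759), without dTAG-13 replicate 3 (0.10, adjusted p = 0.0721) and when only library size was used for scaling (0.080).

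Actb and Actg1, the cytoplasmic beta and gamma actins, followed the same order of groups. Actb (chromosome 5, 142903115 to 142907976) was at 2976, 2977 and 3058 CPM in control, and at 2756, 2729 and 2691 CPM with doxycycline. It was at 2456, 2565 and 2449 CPM with both agents and at 2416, 2358 and 2416 CPM with dTAG-13. Every library of a group lay above every library of the next, although both dTAG-13 groups were close. Actb fell by 0.14 (SE 0.0179, adjusted p = 4.15e-08) with doxycycline, by 0.33 (SE 0.0179, adjusted p = 3.03e-19) with dTAG-13, and by 0.13 (SE 0.0179, adjusted p = 3.47e-08) with dTAG-13 on top of doxycycline. The difference between both agents and dTAG-13 alone was 0.055 (SE 0.0179, adjusted p = 0.024). It was no longer called without doxycycline plus dTAG-13 replicate 2 (0.034, adjusted p = 0.207) or without dTAG-13 replicate 2 (0.048, adjusted p = 0.103). The same call of Actb was lost when only library size was used for scaling (0.021) and when length and GC content of the transcripts were corrected for (0.036). The 2 actins share 30 of the 1871 stretches of 50 bases in the Actb transcript, and 13.4% of these stretches occur in some other gene. How reads that match several genes were counted is not given in the sources used here, so the split of reads between the actins carries that uncertainty.

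Actg1 (chromosome 11, 120345687 to 120348495) was at 753.9, 733.2 and 792.1 CPM in control, and at 679.1, 725.9 and 711.3 CPM with doxycycline. With both agents it was at 644, 676.9 and 617.9 CPM, and with dTAG-13 at 595.6, 578.8 and 599.7 CPM. The 4 groups again did not overlap, but the libraries within a group were more spread than those of Actb. Actg1 fell by 0.36 (SE 0.0371, adjusted p = 2.46e-06) with dTAG-13 and by 0.13 (SE 0.0372, adjusted p = 0.0101) with dTAG-13 on top of doxycycline. Its change with doxycycline was at the edge of the test, -0.11 (SE 0.037, adjusted p = 0.0442). That call was lost in 10 of 20 alternative fits, where the log2 fold change ran from -0.117 to -0.069. Of these, 7 left out 1 library. Without control replicate 1 the value was -0.116, and without control replicate 3 it was -0.080. Leaving out doxycycline replicate 1 gave -0.069, and leaving out its replicate 3 gave -0.117. Both fits that dropped dTAG-13 replicate 1 or 2 gave -0.095, and dropping replicate 1 of the combined treatment gave -0.107. With the replicate number as a block the adjusted p of Actg1 was 0.0599. Actg1 was 0.13 higher with both agents than with dTAG-13 alone (SE 0.0373, adjusted p = 0.0306). This too was lost in 7 fits, of which 5 dropped a library. They gave 0.129 without control replicate 1, 0.130 and 0.093 without replicates 1 and 2 of the combined treatment, and 0.135 and 0.117 without dTAG-13 replicates 1 and 2.

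**Figure D1:**
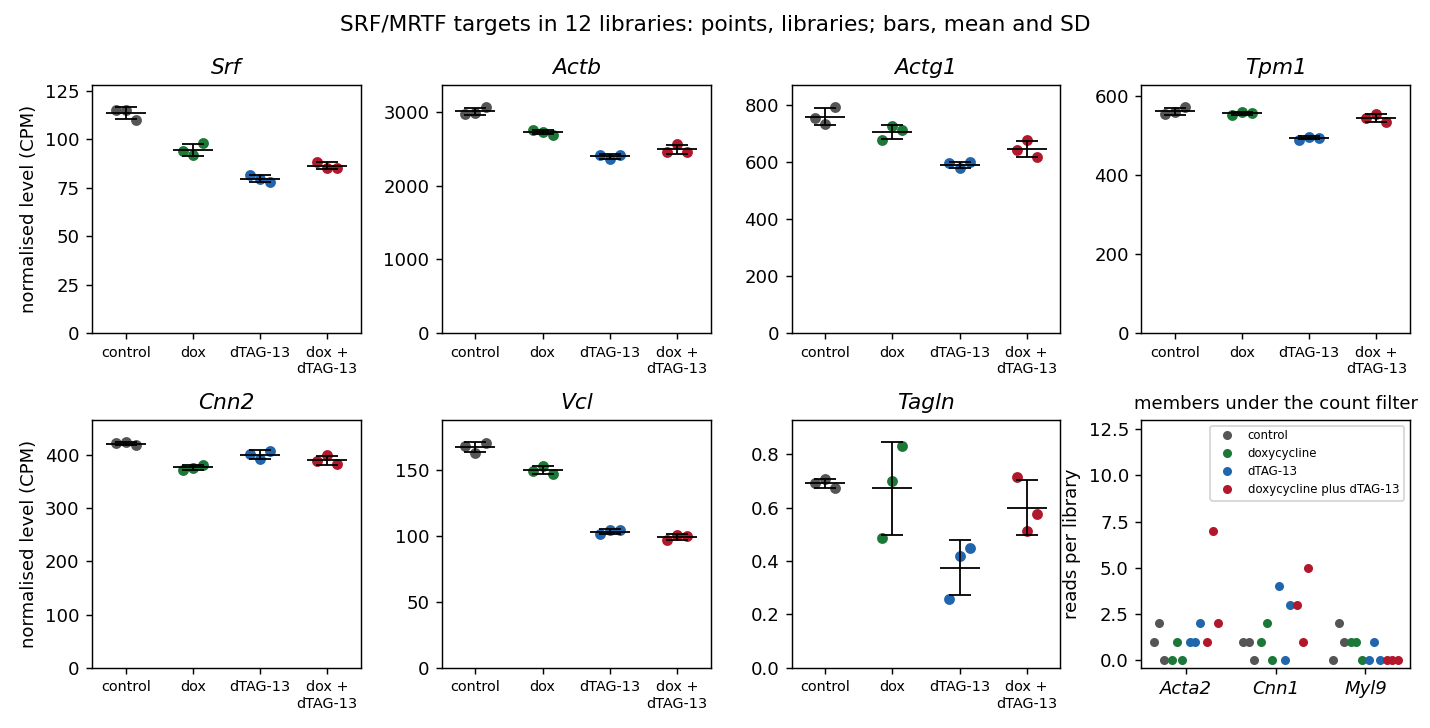
Normalised level (CPM, axes from 0) of the 7 tested members and reads per library of the 3 members under the count filter, by treatment group (dox, doxycycline). Points are libraries, and bars show the mean and SD of 3 libraries. Srf, Actb and Actg1 step down from control over doxycycline and both agents to dTAG-13, Vcl falls to a like level in both dTAG-13 groups, and no library of Acta2, Cnn1 or Myl9 holds more than 7 reads.

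In the plot of levels by group, the order of means seen in Srf and the actins recurs in Tpm1, with smaller steps, and differs in Cnn2 and Vcl. Tpm1 and Cnn2 encode proteins that lie along actin filaments. Tpm1, an alpha-tropomyosin gene (chromosome 9, 67022590 to 67049672), was at 553.4, 557.9 and 569.8 CPM in control and at 551.8, 559.4 and 555 CPM with doxycycline. It was at 544.1, 552.8 and 534.2 CPM with both agents and at 488.7, 496.1 and 493.9 CPM with dTAG-13. Only the dTAG-13 group stood apart from the other groups, and each of the other 3 overlapped with its neighbour in the order. Tpm1 fell by 0.19 (SE 0.0206, adjusted p = 2.85e-10) with dTAG-13 and was 0.14 higher with both agents than with dTAG-13 alone (SE 0.0207, adjusted p = 1.32e-06). Its difference between doxycycline and control was -0.013 (95% interval -0.053 to 0.028), and dTAG-13 on top of doxycycline gave -0.031 (95% interval -0.071 to 0.010). Neither was called.

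Cnn2, a calponin found outside muscle (chromosome 10, 79988600 to 79995400), was lowest with doxycycline. It was at 421.8, 423.9 and 418.6 CPM in control and at 372.1, 376.5 and 381.2 CPM with doxycycline. With both agents it was at 388.9, 399.6 and 383.1 CPM, and with dTAG-13 at 402.5, 391.7 and 408 CPM. The control group was above all others, the doxycycline group was below all others, and the groups with dTAG-13 overlapped. Cnn2 fell by 0.16 (SE 0.0224, adjusted p = 2.15e-07) with doxycycline and by 0.073 (SE 0.0224, adjusted p = 0.00478) with dTAG-13. The latter turned to 0.019 when only library size was used for scaling, a choice that moved the median log2 fold change of all genes in this comparison from 0.019 to 0.110. Cnn2 was the 1 member that rose when dTAG-13 was added to doxycycline, by 0.052 (SE 0.0225, adjusted p = 0.0409). This rise did not hold in 10 of 20 alternative fits, where it ran from 0.030 to 0.054. They were the fits with the replicate block (adjusted p = 0.0566), with no filter on low counts (0.054), and without any 1 of 8 libraries. Dropping control replicate 2 gave 0.038, and dropping doxycycline replicates 1 and 2 gave 0.030 and 0.037. Without replicates 1 and 2 of the combined treatment it was 0.054 and 0.034, and without dTAG-13 replicates 1, 2 and 3 it was 0.038, 0.038 and 0.051.

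Vcl encodes vinculin, which links actin filaments to integrin adhesions (chromosome 14, 20929383 to 21033676). Its levels were 168.7, 163.1 and 170.5 CPM in control and 149.7, 153.4 and 147.3 CPM with doxycycline. With dTAG-13 they were 101.3, 104.3 and 104.4 CPM, and with both agents 96.99, 101.1 and 100.4 CPM. The dTAG-13 libraries, with or without doxycycline, were far below the other 6. Vcl fell by 0.16 (SE 0.0275, adjusted p = 1.6e-05) with doxycycline, by 0.70 (SE 0.0283, adjusted p = 1.51e-23) with dTAG-13, and by 0.59 (SE 0.029, adjusted p = 7.89e-21) with dTAG-13 on top of doxycycline. Among the members it had the lowest adjusted p in both dTAG-13 comparisons. With both agents it was -0.053 against dTAG-13 alone (95% interval -0.111 to 0.005, adjusted p = 0.223), which was not called. An exon of Ap3m1 overlaps Vcl on the opposite strand, and the strand setting of the count is not given in the sources used here. Ap3m1 had group means of 58.46 to 62.28 CPM and was called in none of the 5 comparisons.

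The 4 members known from smooth muscle were near the limit of detection. Tagln, which encodes transgelin (chromosome 9, 45929628 to 45936058), had 22, 22 and 19 reads in the control libraries, 15, 21 and 24 with doxycycline, 16, 13 and 18 with both agents, and 8, 13 and 13 with dTAG-13. That is 0.691 ± 0.0171 CPM in control and 0.374 ± 0.103 CPM with dTAG-13 (SD, n = 3). Tagln fell by 0.88 with dTAG-13 (SE 0.349, adjusted p = 0.0267). This call was lost with DESeq2 (adjusted p = 0.0569), with no filter on low counts (adjusted p = 0.0517), and without control replicate 1 (-0.891, adjusted p = 0.0536), control replicate 2 (-0.873, adjusted p = 0.0597) or dTAG-13 replicate 1 (-0.676, adjusted p = 0.132). None of its other 4 comparisons was called, and their 95% intervals were wide, -0.659 to 0.562 with doxycycline. Tagln overlaps an exon of Pcsk7 on the opposite strand, and Pcsk7 was at 17.55 to 18.85 CPM and called in no comparison. Without a known strand setting, reads of the pair cannot be told apart.

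Acta2, the smooth muscle alpha-actin (chromosome 19, 34240336 to 34255585), had 3 reads over the control group, 1 with doxycycline, 10 with both agents and 4 with dTAG-13. Of the 10 reads, 7 came from 1 library. Cnn1, the smooth muscle calponin (chromosome 9, 22099221 to 22109221), had 2, 3, 9 and 7 reads in the same order. Myl9, a regulatory myosin light chain (chromosome 2, 156775408 to 156781657), had 3, 2, 0 and 1 reads. With 3 counts as the limit that a count of 0 allows over a group, the 0 reads of Myl9 with both agents allow up to 0.0381 CPM, for counting error only. No difference of these 3 genes was detectable at this depth, and no fold is given.

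**Figure D2:**
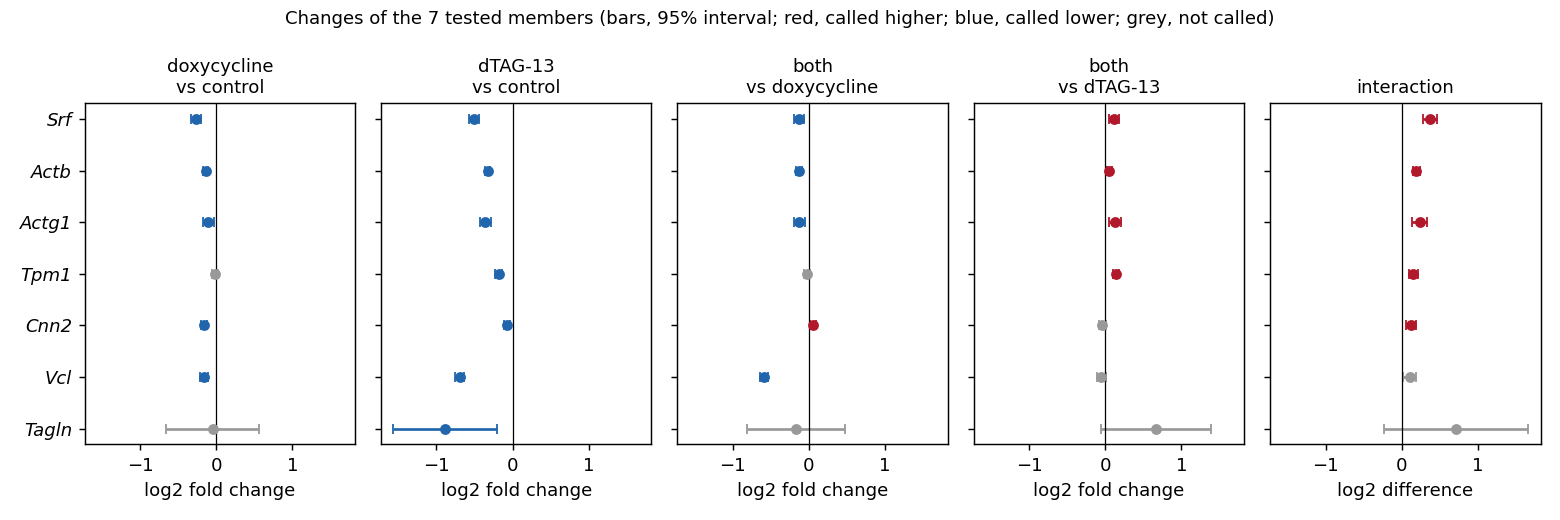
Log2 fold change (x axis) of the 7 tested members (rows) in the 4 pairwise comparisons and the interaction, where both means doxycycline plus dTAG-13. Bars are 95% intervals, blue is called lower, red called higher and grey not called. Blue fills the dTAG-13 column, both dTAG-13 columns show Vcl far to the left, and the interaction column holds no blue point.

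Counted together, as the plot of fold changes shows, 5 of the 7 tested members fell with doxycycline and none rose, where 33.5% of all tested genes were called, 18.7% lower and 14.8% higher. With dTAG-13 alone 7 fell and none rose, beside 62.1% of all genes called, 32.1% lower and 30% higher. With dTAG-13 on top of doxycycline 4 fell and 1 rose, beside 64.1% of all genes called, 33.4% lower and 30.7% higher. Between both agents and dTAG-13 alone 4 were higher and none lower, beside 20.4% of all genes called, 10.7% higher and 9.64% lower. The members' median log2 fold changes in these comparisons were -0.14, -0.36, -0.13 and 0.11, and the medians of all tested genes were -0.010, 0.019, 0.003 and -0.001. The groups did not overlap for 5 of the 7 with doxycycline (43.9% of all genes), for 7 with dTAG-13 (65.5%), for 5 with dTAG-13 on top of doxycycline (67.2%) and for 6 between both agents and dTAG-13 alone (34.3%). No tested member reached a 2-fold change in a called comparison; the fitted fold nearest to it was that of Tagln, 0.542 with dTAG-13. The comparisons share libraries, so their counts are not independent of each other. The shares also depend on the scaling. With library size only, 62.8% of the genes called with dTAG-13 were higher instead of 48.3%, 61.3% instead of 44.3% with doxycycline, and 30.3% instead of 52.7% between both agents and dTAG-13 alone. In that last comparison the same scaling left 3 members called, 1 higher and 2 lower, the lower ones being Cnn2 (-0.072) and Vcl (-0.088). Among all genes it gave 926 called higher and 2132 lower there, instead of 1386 and 1244.

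The change with dTAG-13 was related to transcript length over all genes. Over 11745 genes with a length, the Spearman correlation between length and log2 fold change was -0.447 without doxycycline and -0.588 on top of it, a description across genes, which are not independent. The median of the shortest eighth of genes (up to 1362 bases) was 0.23 and that of the longest eighth (from 6050 bases) -0.29 with dTAG-13. For dTAG-13 on top of doxycycline these medians were 0.38 and -0.39. Vcl, at 5267 bases, is the longest member. Its changes, -0.70 with dTAG-13 and -0.59 on top of doxycycline, were below the medians of the longest eighth. The other members lie between 1128 bases (Myl9) and 2890 bases (Tpm1).

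**Figure D3:**
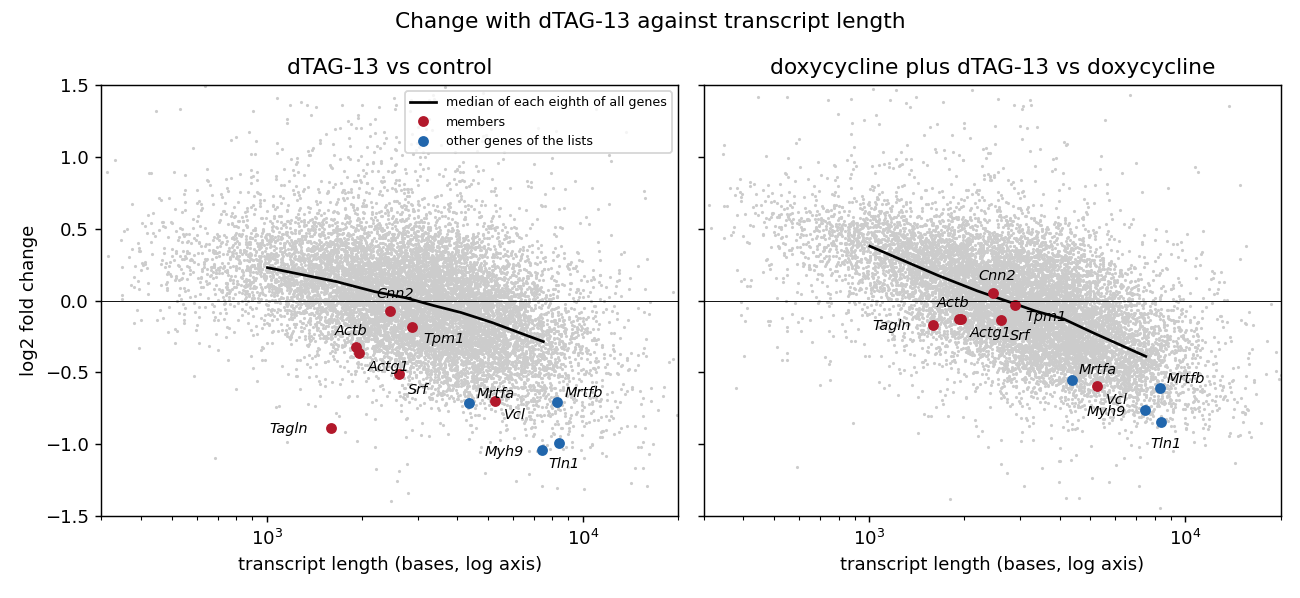
Log2 fold change (y axis) against transcript length in bases (log x axis) for all tested genes with a length, with points beyond the axes not drawn. The line joins the medians of each eighth of genes by length, red points are members and blue points other named genes. Actb, Actg1, Srf and Tagln lie below the line at their length with dTAG-13, while Cnn2 and Tpm1 lie near it with dTAG-13 on top of doxycycline.

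When length and GC content were taken out of each library, the fall of Vcl with dTAG-13 went from -0.70 to -0.505 and its fall on top of doxycycline from -0.59 to -0.331. The falls of the shorter actins became larger, Actb from -0.33 to -0.421 and Actg1 from -0.36 to -0.432 with dTAG-13. Srf kept its fall with dTAG-13 alone (-0.378), but its change on top of doxycycline turned to 0.065 and was not called (adjusted p = 0.112). All 7 tested members stayed lower with dTAG-13 alone under this correction. Among all genes the same fit called 3966 lower and 2993 higher, against 4144 and 3877 without the correction. Why the change runs with length was not tested.

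The interaction asks whether dTAG-13 moved the members differently in cells with and without doxycycline. It subtracts the effect of dTAG-13 in cells without doxycycline from that in cells with it, and a positive value means a smaller fall, or a rise, in doxycycline cells. The interaction was positive and called for 5 of 7 members and negative for none, beside 22.9% of all genes called, 13.2% higher and 9.64% lower. Srf had 0.38 (SE 0.0469, adjusted p = 6.73e-08), which sets its fall of 0.51 without doxycycline against 0.13 with it. Actb had 0.20 (SE 0.0253, adjusted p = 1.72e-07) and Actg1 0.24 (SE 0.0525, adjusted p = 0.00705). Tpm1 had 0.15 (SE 0.0292, adjusted p = 0.000111) and Cnn2 0.13 (SE 0.0317, adjusted p = 0.00327). Vcl had 0.10 (95% interval 0.024 to 0.183, adjusted p = 0.0597), and Tagln 0.72 (95% interval -0.233 to 1.663, adjusted p = 0.311), and neither was called. Vcl passed the threshold in 4 alternative fits, with RLE size factors (0.113), a filter of 1 CPM (0.106), the length and GC correction (0.173) and without doxycycline plus dTAG-13 replicate 1 (0.121). The median interaction of all genes went from 0.005 to 0.015 with RLE size factors and to 0.032 with the length and GC correction. The share of higher genes among those called went from 57.8% to 61.9% and 70.3% in these 2 fits. Cnn2 lost its call with library size only (0.054). That scaling moved the share of higher genes among those called for the interaction from 57.8% to 25.2%. Among all genes it gave 818 called higher and 2424 lower, instead of 1705 and 1245. Under the same scaling 4 members were still called higher.

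**Figure D4:**
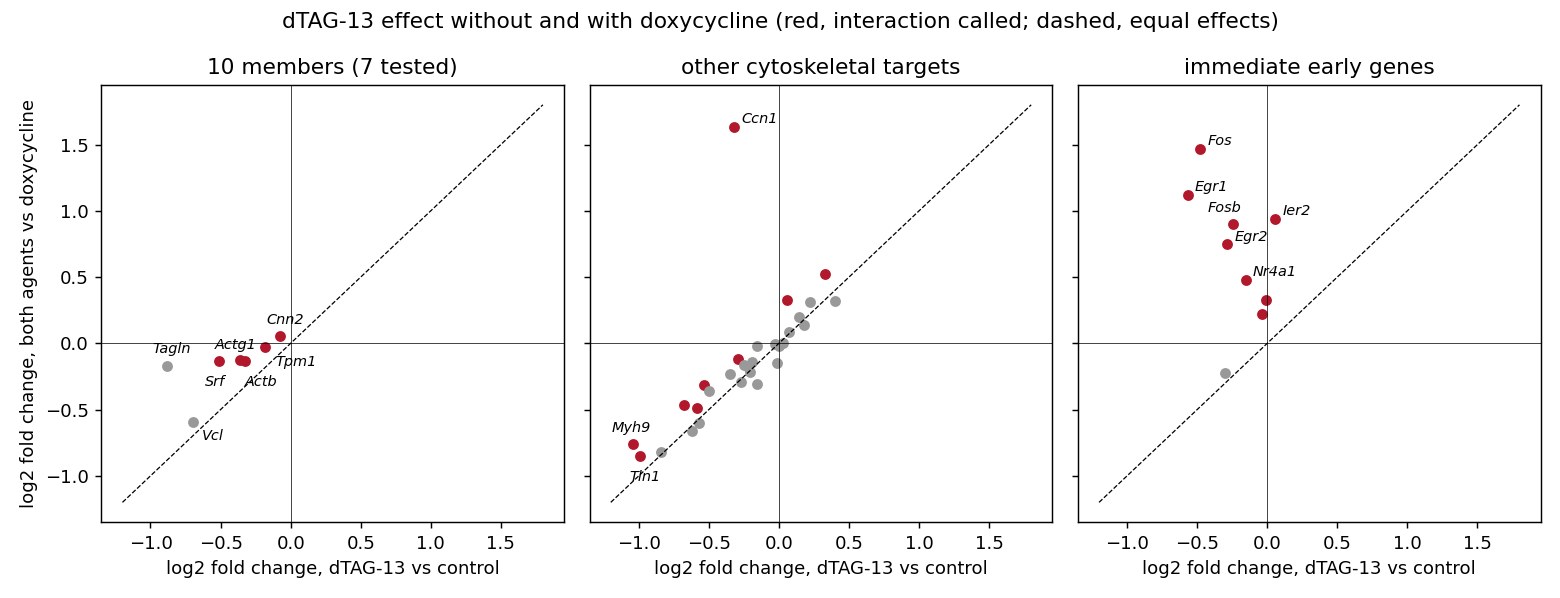
Log2 fold change of dTAG-13 on top of doxycycline (y axis, both agents against doxycycline) against that of dTAG-13 without doxycycline (x axis) for the members, other cytoskeletal SRF targets and immediate early genes. Points are genes, red where the interaction is called, and the dashed line marks equal effects. The 7 members lie above the line with both values mostly below 0, most other cytoskeletal targets lie along it, and Fos, Egr1 and Ccn1 stand far above it.

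Among the cofactors, Mrtfa and Mrtfb, the MRTFs that sense actin, were at lower levels in both dTAG-13 groups. Mrtfa was at 108.3, 101.5 and 113.8 CPM in control and at 96.57, 94.49 and 90.2 CPM with doxycycline. It was at 63.91, 64.68 and 68.64 CPM with dTAG-13 and at 62.85, 67.82 and 61.47 CPM with both agents. The last 2 groups overlapped and lay below the other 6 libraries. Mrtfa fell by 0.20 (SE 0.0394, adjusted p = 0.000125) with doxycycline, by 0.71 (SE 0.0407, adjusted p = 8.75e-17) with dTAG-13 and by 0.55 (SE 0.042, adjusted p = 1.54e-13) with dTAG-13 on top of doxycycline. Mrtfb fell by 0.71 (SE 0.0528, adjusted p = 4.03e-15) and by 0.61 (SE 0.0542, adjusted p = 5.89e-13) in the last 2 comparisons. With doxycycline it differed from control by -0.069 (adjusted p = 0.312), which was not called. Their transcripts are long, 4366 bases for Mrtfa and 8295 bases for Mrtfb. Elk4, a TCF, fell by 0.24 with dTAG-13 and by 0.37 on top of doxycycline. Elk3, another TCF, had an interaction of -0.22 and was 0.13 lower with both agents than with dTAG-13 alone. Myocd, the smooth muscle coactivator, had no read in 3 of the 4 groups. Over the 5 of 6 cofactors tested, 1 fell with doxycycline, 3 with dTAG-13 and 4 with dTAG-13 on top of doxycycline, and none rose. In these 3 comparisons 18.7%, 32.1% and 33.4% of all tested genes fell. The interaction of Mrtfa, 0.16 (adjusted p = 0.0417), was lost in 10 alternative fits, with the replicate block (0.162) and library size only (0.092) and in 8 that left out 1 library. Without control replicates 1 and 3 it was 0.165 and 0.129, and without doxycycline replicates 2 and 3 it was 0.159 and 0.142. Dropping replicates 1 and 2 of the combined treatment gave 0.174 and 0.120, and dropping dTAG-13 replicates 1 and 2 gave 0.133 and 0.144.

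The genes upstream, small GTPases and the regulators of actin assembly, were mixed. Of 17 tested of 18 listed, 3 fell and none rose with doxycycline, 11 fell and 3 rose with dTAG-13, and 12 fell and 4 rose with dTAG-13 on top of doxycycline. Their medians were -0.027, -0.21 and -0.18. Beside these counts, 18.7%, 32.1% and 33.4% of all tested genes fell in the same comparisons, and 14.8%, 30% and 30.7% rose. Rhob, a small GTPase whose transcript responds quickly to stimuli, went the opposite way to Srf with dTAG-13. It was at 222 ± 5.03 CPM in control, 147.5 ± 3.85 with doxycycline, 263.6 ± 0.991 with dTAG-13 and 293.9 ± 4.64 with both agents (SD, n = 3). It fell by 0.59 with doxycycline and rose by 0.99 (SE 0.0256, adjusted p = 6.36e-30) with dTAG-13 on top of it, so that both dTAG-13 groups were above control. Ssh1, a phosphatase that activates cofilin, fell by 0.76 with dTAG-13 and by 0.66 on top of doxycycline. Diaph2, a formin that elongates actin filaments, fell by 0.77 and 0.65. The transcript of Ssh1 has 8436 bases and that of Diaph2 3742 bases. Arhgap1, a GTPase-activating protein, fell by 0.35 with dTAG-13. Cfl1 encodes cofilin, which severs filaments, and Pfn1 profilin, which feeds actin monomers to them. With doxycycline Cfl1 fell by 0.18 and Pfn1 by 0.057. The 3 regulators that rose with dTAG-13 were Rhoc, Rhoa and Rhob, with transcripts of 959, 2197 and 2349 bases. Cfl1, at 2354 bases, fell by 0.26 in that comparison. The part of transcript length in these changes was not tested. The interaction was called higher for 5 of the 17, with Rhob at 0.74 and Cfl1 at 0.19, and lower for Rock2 (-0.16), a kinase downstream of RhoA. Among all tested genes it was called higher for 13.2% and lower for 9.64%. Tmsb4x, the monomer-binding thymosin beta 4, was not tested, with 0.0218 CPM over all libraries. Since the rule for reads matching several genes is unknown, this value is not read as its level of expression.

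Of the other cytoskeletal SRF targets, 30 of 34 were tested. With doxycycline 13 fell and 4 rose, with dTAG-13 17 fell and 5 rose, and with dTAG-13 on top of doxycycline 17 fell and 7 rose. Their medians were -0.039, -0.21 and -0.15. The shares of all tested genes that fell were 18.7%, 32.1% and 33.4%, and 14.8%, 30% and 30.7% rose. Both Myh9, the heavy chain of non-muscle myosin IIA, and Tln1, talin, which binds vinculin at adhesions, showed larger falls than Vcl with dTAG-13. Myh9 was at 1223 ± 11.1 CPM in control and 594 ± 12 CPM with dTAG-13 (SD, n = 3), a fall of 1.04 (SE 0.0203, adjusted p = 5.91e-34). Tln1 fell by 0.99. Both have transcripts of 7433 bases or more, and with the length and GC correction their falls were -0.607 for Myh9 and -0.524 for Tln1. On top of doxycycline Tln1 fell by 0.85. The 5 targets that rose with dTAG-13 (Fhl2, Myl6, Tpm2, Tpm4 and Tes) have transcripts of 692 to 2440 bases. Tpm3, at 2233 bases, and Pdlim7, at 1697 bases, were among those that fell. The part of length in these directions was not tested. Myl12a, a regulatory light chain of non-muscle myosin and so a counterpart of the nearly unread Myl9, had an interaction of 0.27. Myh9 had one of 0.28. The interaction was called for 9 of the 30, and all 9 were higher, beside 22.9% of all genes called, 13.2% higher.

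Ccn1, Ankrd1 and Thbs1, targets that SRF shares with the YAP/TEAD pathway, moved in different directions with doxycycline, with Ccn1 at -1.44, Ankrd1 at -0.40 and Thbs1 at 0.53, and between both agents and dTAG-13 alone they differed by 0.52, -0.31 and 0.50. Ccn1 was at 287.8 ± 4.55 CPM in control, 106 ± 2.42 with doxycycline, 230.2 ± 7.84 with dTAG-13 and 329.4 ± 11.4 with both agents (SD, n = 3), a rise of 1.64 for dTAG-13 on top of doxycycline and an interaction of 1.96.

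The TCF-linked immediate early genes give the values of SRF's other branch. Of 9 tested, 7 fell with doxycycline (Fos -1.46, Egr1 -1.36, Fosb -0.83), 2 fell with dTAG-13 (Egr1 -0.57, Fos -0.48), and 8 rose with dTAG-13 on top of doxycycline (Fos 1.47, Egr1 1.12, Ier2 0.94), where 4 of the 7 tested members fell. Of all tested genes, 18.7% fell with doxycycline, 32.1% fell with dTAG-13 and 30.7% rose with dTAG-13 on top of doxycycline. Against dTAG-13 alone, both agents gave 4 of the 9 higher and none lower (Egr1 0.34, Junb 0.22, Ier2 0.20), beside 10.7% of all genes higher. The interaction was called higher for 8 of the 9 (Fos 1.95, Egr1 1.69, Fosb 1.15), beside 13.2% of all genes. Fos and Fosb had few reads, with group means of 0.9473 to 2.625 CPM and 1.137 to 2.122 CPM. Those of Egr1 were 109.2 to 279.2 CPM. For Fos, the libraries with dTAG-13 overlapped with those of control.

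Across the 12 libraries, the Pearson r of log2 CPM between 2 tested members was highest for Srf and Actb (0.954) and lowest for Cnn2 and Tpm1 (-0.00757). Cnn2 also had low values with Tagln (0.00308), Vcl (0.247) and Actg1 (0.305). These values are a description, since the libraries fall into 4 groups of 1 culture each. The genes most like Srf among 9099 with at least 10 CPM on average were Mcm5 (r = 0.988), Nup62 (0.987) and Tnks1bp1 (0.982). For Tnks1bp1 the group means were 511 CPM in control, 390 with doxycycline, 332 with both agents and 276 with dTAG-13, the same order as Srf. For Tagln they were Fam110a (0.897), Zcchc17 (0.888) and Ccnb1-ps (0.868), with the few reads of Tagln behind each value.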

How the data were processed

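RNA was measured in 12 poly(A) libraries, and the authors deposited their raw counts as 1 table of 27179 Entrez gene IDs, with no normalization. Per the file headers reads were aligned with Subread, and per the submitters' processing notes the genome was mm10, reads were counted with featureCounts and bcl2fastq 2.17 was used. Sources used here do not give the annotation, the strand setting or the rule for reads matching several genes. Each library was matched to 1 column by name, and no column was left over.

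Tests used edgeR 4.0.16 in R 4.3.3: filterByExpr by group (12910 genes left), TMM scaling (factors 0.9647 to 1.0349), 1 mean per group over all 12 libraries, and the robust quasi-likelihood F test, two-sided, with Benjamini-Hochberg adjustment over all tested genes and calls at an adjusted p under 0.05. There were 5 comparisons: the 4 simple effects and the interaction. Each SE is the fold change over the root of F, and 95% intervals are 1.96 SE to either side. CPM uses the TMM-scaled library size. CPM per kb uses the length of the longest RefSeq-linked transcript in GENCODE M21.

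Symbols came from RefSeq (25275 IDs) and GENCODE M21 (18 IDs). Promoters and gene spans came from RefSeq GRCm38.p6. The named genes were the members, Mrtfa and Mrtfb, the 3 called genes with the largest absolute log2 fold change of each list in each comparison (mean of at least 1 CPM), and the 3 genes most like Srf and Tagln. Marker and neighbouring genes are given as checks. A named gene of 1 list is not reported here. The members and all lists were chosen with earlier results of these data known.

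Alternatives were RLE size factors, library size only, DESeq2 1.42.0, no filter on low counts, at least 1 CPM in 3 libraries, a fit restricted to the compared groups, a block on replicate number, a length and GC correction (splines with 5 degrees of freedom per library, as an offset), and leaving out each library. No 2 libraries of a group agreed within sampling noise, by the chi-square per gene of their difference. In control, doxycycline and the combined treatment it was 2.427 to 2.754 between replicates 1 and 2. Between replicate 3 and either of them it was 4.483 to 8.798. In the dTAG-13 group all pairs were at 3.079 to 3.34. The reason was not tested. The code was tested on simulated data. Python 3.11.15, pandas 2.3.3 and matplotlib 3.10.9 served for tables and figures.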

Additional observations from a re-analysis of the deposited data

Results flagged for a closer look

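For 5 of the 7 tested members the effect of dTAG-13 differed between cells with and without doxycycline by a test of the difference itself, the interaction in edgeR's quasi-likelihood fit. Among all tested genes 22.9% were called for the interaction, 13.2% higher. The log2 differences were 0.378 for Srf, 0.235 for Actg1, 0.195 for Actb, 0.154 for Tpm1 and 0.125 for Cnn2. In Srf, Actb and Actg1 dTAG-13 lowered the level in both settings, and the fall was smaller with doxycycline. With the length and GC correction the change of Srf on top of doxycycline turned to 0.065 and was not called. Tpm1 fell without doxycycline, and its change with doxycycline, -0.031, was not called. Cnn2 fell without doxycycline and was 0.052 higher with it, a rise whose call was lost in 10 alternative fits. The interaction of Cnn2 lost its call with library size only (0.054). The causes were not tested. Groups of 3 libraries are too small for an outlier test, and none was made.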

How the results depend on the processing

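Over 20 alternatives, the values of the members and named list genes kept their direction and side of the threshold in 1741 cases, lost a call in 78, gained one in 6 and changed sign in 9. The sign changes were Cnn2 with dTAG-13 with library size only (0.019), Srf on top of doxycycline with the length and GC correction (0.065), Tagln with doxycycline without doxycycline replicate 1 (0.153) and on top of doxycycline without doxycycline replicate 3 (0.006), Tpm1 with doxycycline with library size only (0.023), with only the groups compared (0.000) and without doxycycline replicate 1 (0.003), and, between both agents and dTAG-13 alone, Mrtfa with the length and GC correction (0.002) and Mrtfb with library size only (-0.005). Apart from Cnn2 and Srf, none of these values was called before or after. The number of members called between both agents and dTAG-13 alone went from 4 to 2 with the length and GC correction. Leaving out 1 library gave 2 to 4 there, with 2 without doxycycline plus dTAG-13 replicate 1 or 2 and without dTAG-13 replicate 2. Of all tested genes, 2630 were called in this comparison, and 2266 with the length and GC correction. Without doxycycline plus dTAG-13 replicate 1 or 2 they were 1990 and 2361, and without dTAG-13 replicate 2 they were 2083. The cause was not tested. Leaving out 1 library moved Tagln from -0.228 to 0.153 with doxycycline and from -0.372 to 0.006 on top of it, and Tpm1 from -0.026 to 0.003 with doxycycline. Counts of all genes called stayed within 1.5 times in every fit. DESeq2 gave no adjusted p for Tagln between both agents and dTAG-13 alone or in the interaction, so these are left out. Libraries with the same number did not deviate together (r from -0.0208 to 0.0801 over 18 pairs, and 3 of 12 libraries were most like one of their own number), so the numbers do not pair them. With the replicate block 4172 genes were called with doxycycline, 7938 with dTAG-13, 8205 with dTAG-13 on top of doxycycline, 2490 between both agents and dTAG-13 alone, and 2810 for the interaction; the members called were 4, 7, 4, 4 and 5. Depth limits Tagln, with 8 to 24 reads per library, and the 3 members below the filter.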
